A study of Mus musculus with 130 samples.

Results

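Aco1, Ireb2, Fbxl5, Ncoa4, Pcbp1 and Pcbp2 are 6 genes that sense, release or deliver iron inside the cell. They were taken as a named list, matched by symbol to Ensembl identifiers, out of 35274 identifiers in the table of the diet study and 35711 in the table of the strain panel. All 6 were found in both tables and passed the filter on low counts. RNA was measured in the liver of male mice, by sequencing of messenger RNA from a piece of the large lobe. The diet study held 5 groups of 3 C57BL/6J mice: chow, a diet with 50 ppm iron, a diet with 500 ppm, a diet with 2% carbonyl iron (20000 ppm), and a diet with 2% carbonyl iron that the labels mark with cellulose as its fiber source (called 2% iron with cellulose below). The fiber source of the other diets is not given in the labels. The panel held 115 mice of 114 inbred strains, all given chow for 4 weeks and then the 2% carbonyl iron diet for 6 weeks, so it has no low-iron control. By family these are 56 BXD, 20 AXB/BXA, 3 CXB and 4 BXH strains, each family bred to fixation from a cross of 2 inbred parents, and 31 other inbred strains. The substrains AXB19, AXB19a and AXB19b, and BXD48 and BXD48a, were counted as separate strains. The label of BXD24/TyJ-Cep290<rd16>/J names an allele of Cep290. Each strain was 1 mouse, except 129X1/SvJ with 2 mice, so strain and mouse cannot be told apart. The iron content of the chow and the length of feeding in the diet study are not given in the sources used here.

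Diet-study libraries held 10.4 to 20.4 M (1e6) estimated counts and panel libraries 9.41 to 20.6 M. Levels below are CPM, counts per 1e6 counts scaled with TMM factors, unless TPM (transcripts per 1e6 transcripts, which also divides by transcript length) is named. The tissue matched its label: the summed level of 6 hepatocyte markers lay between 77788 and 97673 CPM in the diet study and between 56882 and 162900 CPM in the panel, and 4 markers of pancreas stayed at or below 0.173 and 6.51 CPM. The library labelled BXD65 went against its male label, with 3.90 CPM summed over Y-linked genes against 118 to 324 CPM in the other panel libraries. Its levels of the 6 genes ranked between place 18 and place 79 of 114. The summed level of 7 Kupffer cell markers (Kupffer cells are the resident macrophages of the liver) was 111 to 229 CPM on chow, 50 ppm and 500 ppm, and 482.6 to 746 CPM on the 2 diets with 2% iron. The 5 erythroid markers likewise stood at 8.11 to 111 CPM against 147 to 444 CPM. The 5 endothelial markers were at 185 to 228 CPM and 229.5 to 319 CPM. In such bulk tissue, fewer cells of a type and less RNA per cell cannot be told apart. The part of these cell types in the diet results below was not tested. For the panel, only relations of the genes with summed markers across strains are given further below.

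Cells keep their free iron within bounds mostly through proteins that read it directly. IRP1, encoded by Aco1, and IRP2, encoded by Ireb2, bind a hairpin called the iron-responsive element (IRE) in the untranslated regions (UTRs) of messenger RNAs when iron is scarce. Bound in a 5′ UTR they block translation, as for ferritin, and bound in a 3′ UTR they protect the message from decay, as for the transferrin receptor. When iron is ample, IRP1 takes up an iron-sulfur cluster and works as cytosolic aconitase, while IRP2 is destroyed after FBXL5, an iron-binding subunit of an SCF ubiquitin ligase, recognises it. NCOA4 carries ferritin into autophagosomes to set its iron free, and the RNA-binding proteins PCBP1 and PCBP2 also act as chaperones that hand iron to ferritin and to iron-dependent enzymes. Much of this control acts on the proteins, and only RNA was measured here.

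The element read by both IRPs is shown first, since the target messages are followed beside the regulators below. The search, on the sense strand of transcripts, was for C, any 5 bases, CAGTG and 1 base other than G, followed by 5 bases that pair with the first 5 (G-T pairs allowed). Capitals mark the loop of 6 bases, and the sequences are from the GENCODE M21 annotation of GRCm38. A match was present in UTRs of 123 of 21901 protein-coding genes (0.562%), of 6 of the 12 listed IRE messages and of 0 of the 6 genes described here. A match is a description of letters, and no match says only that these letters are not in the annotated UTRs. Examples from the 3′ UTR of Tfrc (transferrin receptor, chr16:32631219-32631248 and chr16:32631598-32631627, plus strand) and the 5′ UTRs of Fth1 (ferritin heavy chain, chr19:9982732-9982761, plus strand), Ftl1 (ferritin light chain, chr7:45459778-45459807, minus strand) and Slc40a1 (ferroportin, the iron exporter, chr1:45925464-45925493, minus strand) are:
Tfrc, match 1: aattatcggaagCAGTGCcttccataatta
Tfrc, match 2: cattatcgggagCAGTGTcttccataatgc
Fth1: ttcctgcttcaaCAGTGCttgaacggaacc
Ftl1: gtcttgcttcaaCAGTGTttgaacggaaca
Slc40a1: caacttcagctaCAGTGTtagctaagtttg

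By the search rule, the loops can differ only in their last base. In all, Tfrc held 4 matches in its 3′ UTR, and Alas2 (the erythroid enzyme that begins heme synthesis) held 1 in its 5′ UTR.

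The 6 genes lie on 6 chromosomes of GRCm38: Aco1 (ENSMUSG00000028405) at chr4:40143081-40198338 on the plus strand, Ireb2 (ENSMUSG00000032293) at chr9:54863789-54912530 on the plus strand, and Fbxl5 (ENSMUSG00000039753) at chr5:43744615-43821638 on the minus strand. Ncoa4 (ENSMUSG00000056234) lies at chr14:32159865-32179855 on the plus strand. Pcbp1 (ENSMUSG00000051695), with a single annotated transcript, lies at chr6:86524492-86526321 on the minus strand, and Pcbp2 (ENSMUSG00000056851), with 31 transcripts, at chr15:102470539-102500061 on the plus strand. Fbxl5, Pcbp1 and Pcbp2 overlap annotated genes on the opposite strand (Bst1 and Gm43182, 1600020E01Rik, and Map3k12 and Gm26518). The library kit keeps strand, but the strand setting used in counting is not given, so reads of these partners cannot be told apart.

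Aco1 was lower on both diets with 2% iron than on any other diet, and Ireb2 was lower with cellulose. Fbxl5 was higher on both diets than on chow, and Pcbp1 was higher with cellulose. A gene is called here at an adjusted p under 0.05 in edgeR's quasi-likelihood test, over 13560 genes. On 2% iron against 50 ppm 1 of the 6 genes fell, Aco1, and 0 rose, where 15.7% of all genes were called, 8.52% higher and 7.17% lower. With cellulose against 50 ppm, Aco1 and Ireb2 fell and Pcbp1 rose (29.7% of all genes called, 15.4% higher and 14.3% lower). Against 500 ppm, Aco1 fell on 2% iron (11.3% of all genes called, 6.59% higher and 4.75% lower), and the same 3 genes as above moved the same ways with cellulose (25.8%, 13.4% higher and 12.5% lower). Against chow, Aco1 and Ireb2 fell and Fbxl5 rose on 2% iron (22.8% of all genes called, 11.9% higher and 10.9% lower). With cellulose against chow, Pcbp1 rose as well (35% of all genes called, or 4748 genes, 17.7% higher and 17.4% lower). These comparisons share their control mice, so they are not independent of each other.

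Among chow, 50 ppm and 500 ppm, edgeR called none of the 6 genes. For 500 ppm against 50 ppm it called 0 of 13560 genes (0%), with 428 at an unadjusted p under 0.05 but 0 of the 6, and DESeq2 called 2 genes and 0 of the 6. For chow against 50 ppm (0.391% of all genes called, 0.265% higher and 0.125% lower), edgeR called 0 of 6 and DESeq2 1, Aco1, with 2 of the 6 at an unadjusted p under 0.05 in edgeR. For 500 ppm against chow (0.590%, 0.184% higher and 0.406% lower), the counts were also 0, 1 (Aco1) and 2. Between the 2 diets with 2% iron, edgeR and DESeq2 called 0 of 6 (0.0811% of all genes called in edgeR, 0.00737% higher and 0.0737% lower, with cellulose against the other). Of the 6, Ireb2 and Pcbp1 had an unadjusted p under 0.05 there. Over all 13560 genes, 1408 had such a p for chow against 50 ppm, 1858 for 500 ppm against chow and 1757 between the 2 diets with 2% iron.

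**Figure D1:**
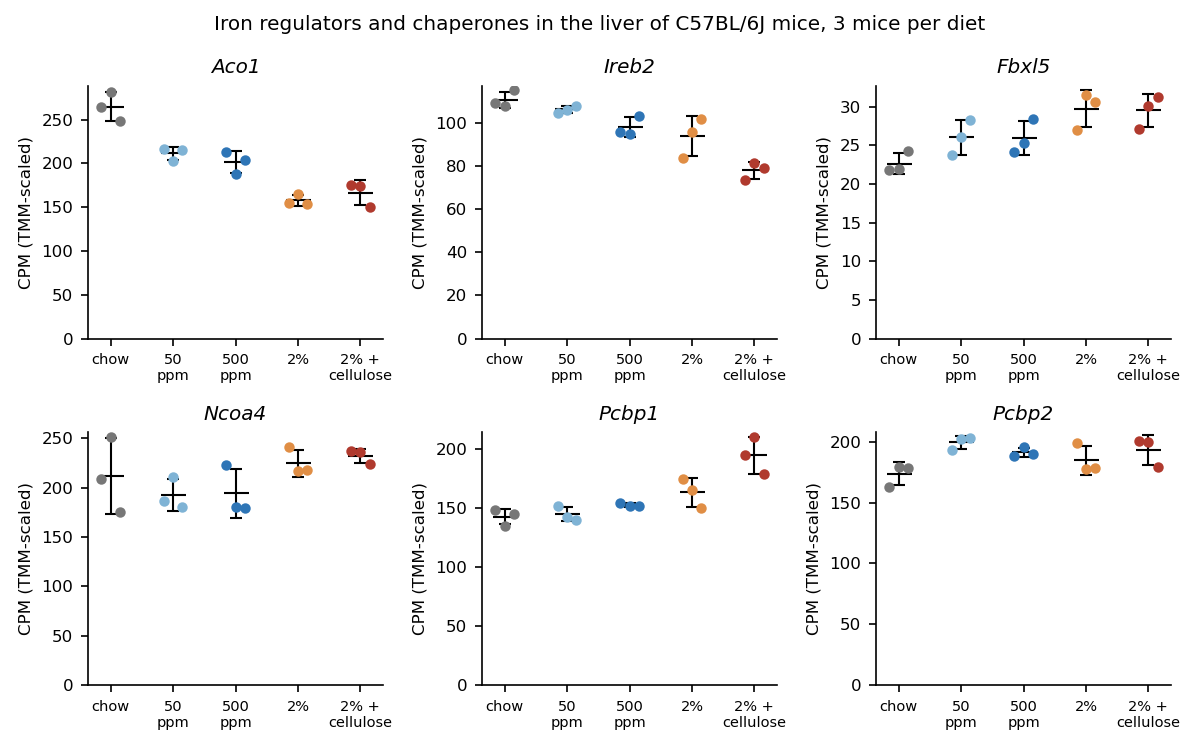
CPM (vertical axes, from 0) of each gene in every C57BL/6J mouse by diet (horizontal axis), with the mean and SD of 3 mice as bars. Aco1 on both 2% diets lies below every other mouse, and Ireb2 is lowest and Pcbp1 highest on 2% iron with cellulose.

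Aco1 was lower in every mouse on 2% iron than in any mouse on another diet. The 3 mice on chow had 265, 282 and 248.3 CPM, those on 50 ppm 216, 203 and 215 CPM, and those on 500 ppm 213, 187.6 and 204 CPM. On 2% iron the values were 154, 165 and 154 CPM, and with cellulose 175, 174 and 151 CPM. The 6 mice on 2% iron thus spanned 150.7 to 175 CPM and the other 9 spanned 187.6 to 282 CPM, without overlap. Of 12597 genes, 6.37% were lower and 7.65% higher without overlap in the same way. The mean was 265 ± 16.7 CPM on chow, 211 ± 7.41 on 50 ppm, 201 ± 12.7 on 500 ppm, 158 ± 6.02 on 2% iron and 167 ± 13.8 with cellulose (SD, n = 3 each).

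Against 50 ppm, Aco1 fell by 0.42 on the log2 scale on 2% iron (SE 0.09, adjusted p = 0.00682) and by 0.34 with cellulose (SE 0.09, adjusted p = 0.0102). Against chow it fell by 0.74 (adjusted p = 1.46e-04) and by 0.67 (adjusted p = 1.18e-04). Over the 9 mice at 50, 500 and 20000 ppm, it fell by 0.16 on the log2 scale per step of 1 in log10 ppm (adjusted p = 0.0119), where 15.6% of 12928 genes were called, 8.65% higher and 6.96% lower. In the order of levels, the 2 diets with 2% iron did not pass the test against each other (adjusted p = 0.769), nor did 500 ppm against 50 ppm (adjusted p = 1) or 50 ppm against chow (adjusted p = 0.184 in edgeR, 0.0262 in DESeq2).

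Against 500 ppm, Aco1 fell by 0.34 on the log2 scale on 2% iron (adjusted p = 0.0249) and by 0.26 with cellulose (adjusted p = 0.0421). These calls were lost under 7 and 8 of 13 other settings. On log2(TPM + 1) with limma, only the fall on 2% iron against chow was still called for Aco1, with a change of -0.52 (adjusted p = 0.0136). With cellulose against 50 ppm the change was then -0.14 (adjusted p = 0.484), and against chow -0.32 (adjusted p = 0.076). On that scale the median of all genes moved too, by 0.05 for 2% iron and 0.11 with cellulose against 50 ppm, and by 0.15 with cellulose against chow. The first mouse on 2% iron with cellulose had 66.6 TPM of Aco1, just under the chow range of 66.9 to 69.7 TPM, against 49.5 and 48.4 TPM in the other 2 mice.

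Ireb2 was lowest on 2% iron with cellulose. Values were 110, 108 and 115 CPM on chow, 105, 106 and 108 CPM on 50 ppm, and 96.05, 94.9 and 103 CPM on 500 ppm. On 2% iron they were 84.02, 95.8 and 102 CPM, which overlapped 500 ppm but lay under all mice on 50 ppm and chow (the share of genes that did so was not counted). With cellulose they were 73.8, 81.6 and 79.2 CPM, below each of the other 12 mice, as 4.8% of 12597 genes were.

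Ireb2 fell with cellulose by 0.45 on the log2 scale against 50 ppm (SE 0.08, adjusted p = 0.00138), by 0.32 against 500 ppm (adjusted p = 0.0113) and by 0.51 against chow (adjusted p = 4.07e-04). On the other diet with 2% iron, the change was -0.18 against 50 ppm (95% interval -0.35 to -0.0037, adjusted p = 0.157). Against chow it fell by 0.24 (adjusted p = 0.0492), a call lost under 10 of 13 other settings, with adjusted p up to 0.836. The difference between the 2 diets with 2% iron was -0.27 (95% interval -0.44 to -0.10, adjusted p = 0.192). All calls of Ireb2 were lost on log2(TPM + 1), where the change with cellulose against 50 ppm was -0.27 (adjusted p = 0.132).

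Fbxl5, the sensor subunit that marks IRP2 for destruction, was lowest on chow. Its values were 21.8, 21.9 and 24.2 CPM on chow, 23.8, 26.03 and 28.3 CPM on 50 ppm, and 24.1, 25.3 and 28.4 CPM on 500 ppm. On 2% iron they were 27.02, 31.6 and 30.7 CPM, and with cellulose 27.2, 30.1 and 31.3 CPM. All 6 mice on 2% iron were above the chow mice, and 4 of the 6 were above all 9 other mice. The share of all genes that separate in these ways was not counted.

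Against chow, Fbxl5 rose on 2% iron by a log2 change of 0.39 (SE 0.10, adjusted p = 0.00973) and by 0.38 with cellulose (SE 0.10, adjusted p = 0.00787), and both calls held under all 13 other settings. Against 50 ppm the change was 0.19 (95% interval -0.01 to 0.40, adjusted p = 0.195) on 2% iron and 0.18 (adjusted p = 0.183) with cellulose.

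Ratios of 2 genes within 1 mouse do not depend on how the library was scaled. These pairs were chosen after the values were seen, so the p-values of ratios, here and below, do not cover that choice. The share of other gene pairs with such a slope or such a separation of diets was not counted. The count of Fbxl5 over that of Ireb2 was 0.199 to 0.210 on chow, 0.227 to 0.262 on 50 ppm, 0.251 to 0.274 on 500 ppm, 0.3 to 0.329 on 2% iron and 0.368 to 0.395 with cellulose. Only the neighbours 50 and 500 ppm overlapped. Over the 9 mice at 50, 500 and 20000 ppm the ratio rose by 0.15 on the log2 scale per step of 1 in log10 ppm (exact permutation test, two-sided, p = 0.00179, adjusted p = 0.00476 over 8 tests). On TPM the slope was 0.12 (exact p = 0.00298).

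The count of Aco1 over Fbxl5 went from 10.2 to 12.8 on chow to 5.03 to 5.71 on 2% iron and 4.81 to 6.46 with cellulose, and its slope over the same 9 mice was -0.25 (exact permutation p = 0.00357, adjusted p = 0.00556). Aco1 over Ireb2 had a slope of -0.10 (exact permutation p = 0.0256, adjusted p = 0.0256). With cellulose that ratio was 1.90 to 2.38, overlapping chow at 2.15 to 2.61, against 1.51 to 1.84 on the other diet with 2% iron.

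**Figure D2:**
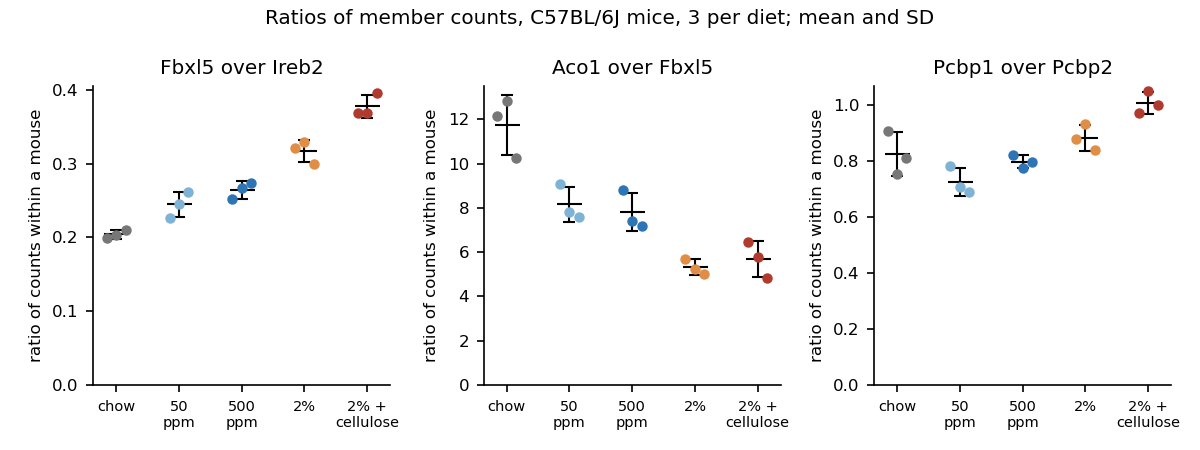
Ratio of the counts of 2 genes within each mouse (vertical axes, from 0) by diet (horizontal axis), 3 C57BL/6J mice per diet, with mean and SD as bars. Fbxl5 over Ireb2 climbs from about 0.204 on chow to 0.377 on 2% iron with cellulose, and the mean of Pcbp1 over Pcbp2 is 0.825 on chow, 0.726 on 50 ppm and 1.01 with cellulose.

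Of the 12 messages known or proposed to hold an IRE, 2 rose (Ftl1 and Slc40a1) and 2 fell (Alas2 and Hao1) on 2% iron against 50 ppm, beside 8.52% of all genes that rose and 7.17% that fell, with a list median of 0.07 beside 0.01 over all genes. Ftl1 rose by a log2 change of 1.32 (adjusted p = 8.49e-05) and Slc40a1 by 1.54 (adjusted p = 1.26e-04), while Alas2 fell by 1.51 (adjusted p = 0.0017). Fth1 had 821 to 937 CPM on 2% iron and 880 to 967 CPM on 50 ppm, which overlapped, and its change was -0.11 (adjusted p = 0.573). Tfrc rose with cellulose by 0.97 against 50 ppm (SE 0.32, adjusted p = 0.0361), from 9.53, 11.2 and 19.6 CPM to between 15.5 and 39.5 CPM, and the groups overlapped. On chow, however, Tfrc was at 24.5 to 35.7 CPM, and edgeR called it on neither diet with 2% iron against chow. Nor was Tfrc called on 2% iron against 50 ppm. Of the 12 genes of the FBXL5 ligase and of cytosolic iron-sulfur assembly, the pathway that loads IRP1, edgeR called 0 on 2% iron against 50 ppm (list median -0.06), with 1 at an unadjusted p under 0.05, and DESeq2 called 1, lower. Against chow 1 of 12 fell on 2% iron and 3 with cellulose, where 10.9% and 17.4% of all genes fell. Skp1, the adaptor that ties FBXL5 to its ligase, fell by 0.44 (adjusted p = 0.00591) and with cellulose by 0.37 (adjusted p = 0.00981), where also Ciapin1 fell by 0.53 (adjusted p = 0.0014) and Ciao3 by 0.34 (adjusted p = 0.0241).

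Ncoa4, the ferritin cargo receptor, was called in none of the diet comparisons. Its values were 209, 252 and 175 CPM on chow, 187, 211 and 181 CPM on 50 ppm, and 223, 181 and 179 CPM on 500 ppm. On 2% iron they were 241, 216 and 217.4 CPM, and with cellulose 237, 236 and 223 CPM. The mice on 2% iron lay above all 3 on 50 ppm but inside the spread of chow, and the share of genes placed above 50 ppm was not counted. The change against 50 ppm was 0.23 (SE 0.13, 95% interval -0.05 to 0.50, adjusted p = 0.252) on 2% iron and 0.27 (95% interval -0.01 to 0.54, adjusted p = 0.131) with cellulose. On log2(TPM + 1) with limma the change with cellulose was 0.55 against 50 ppm (adjusted p = 0.0407), and 0.54 against 500 ppm (adjusted p = 0.0482).

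Among 13 genes of the autophagy route that NCOA4 feeds, 0 rose and 3 fell on 2% iron against 50 ppm, where 7.17% of all genes fell, with a list median of -0.10 beside 0.01 over all genes. They encode the membrane-anchored proteins that decorate autophagosomes: Map1lc3a fell by 0.93 on the log2 scale (adjusted p = 0.00237), Gabarapl2 by 0.39 (adjusted p = 0.00988) and Map1lc3b by 0.32 (adjusted p = 0.0407). With cellulose, 6 fell and 1 rose (14.3% and 15.4% of all genes); Sqstm1, an autophagy receptor that is itself degraded by the route, rose by 0.29 (adjusted p = 0.0358). Against chow, 6 fell on 2% iron (10.9% of all genes) and 8 with cellulose (17.4%), among them Atg9a by 0.27 (adjusted p = 0.0244) and by 0.45 (adjusted p = 8.62e-04).

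Pcbp1 was highest on 2% iron with cellulose. Its values were 148, 135 and 145 CPM on chow, 151, 143 and 139.8 CPM on 50 ppm, and 155, 151 and 151 CPM on 500 ppm. On 2% iron they were 174, 165 and 149.8 CPM, and with cellulose 195, 210.2 and 179 CPM. Every mouse with cellulose was above all others, as 3.69% of 12597 genes were, whereas 1 of the 3 on the other diet with 2% iron fell within the range of the remaining diets.

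With cellulose, Pcbp1 rose by 0.43 on the log2 scale against 50 ppm (SE 0.08, adjusted p = 0.0023), by 0.36 against 500 ppm (adjusted p = 0.00673) and by 0.45 against chow (adjusted p = 0.00117). These calls held under all 13 other settings of each comparison. On the other diet with 2% iron the change against 50 ppm was 0.18 (95% interval -0.0030 to 0.35, adjusted p = 0.173). The 2 diets with 2% iron differed by 0.25 (95% interval 0.07 to 0.43, adjusted p = 0.236).

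Pcbp2 was called in no diet comparison in edgeR. Its values were 163, 179 and 179 CPM on chow, 193.4, 202.1 and 203 CPM on 50 ppm, and 188.3, 195.6 and 189.8 CPM on 500 ppm. On 2% iron they were 199, 177 and 178 CPM, and with cellulose 200.4, 200.1 and 179 CPM. Chow lay below 50 and 500 ppm (the share of genes that did so was not counted) but overlapped both diets with 2% iron. The change on 2% iron against 50 ppm was -0.11 (95% interval -0.28 to 0.06, adjusted p = 0.387); with cellulose against chow it was 0.15 (adjusted p = 0.153), and 0.35 on log2(TPM + 1) (adjusted p = 0.0166). The count of Pcbp1 over Pcbp2 was 0.755 to 0.909 on chow, 0.690 to 0.783 on 50 ppm, 0.774 to 0.821 on 500 ppm, 0.840 to 0.932 on 2% iron and 0.972 to 1.05 with cellulose. Chow overlapped 50 ppm, 500 ppm and 2% iron, and only the mice with cellulose were above all others. Its slope over 50, 500 and 20000 ppm was 0.11 per step of 1 in log10 ppm (exact permutation p = 0.00179, adjusted p = 0.00476). This pair too was chosen after the values were seen, which the p-value does not cover.

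The 8 other genes of the PCBP family and of enzymes and adaptors that receive iron from them gave 1 call on 2% iron against 50 ppm, higher as were 8.52% of all genes, with a list median of 0.10. It was Egln3, an iron-dependent prolyl hydroxylase of hypoxia-inducible factors, which rose by 1.36 (SE 0.27, adjusted p = 0.00494). Egln1, its paralog, joined with cellulose, with a rise of 0.65 (SE 0.15, adjusted p = 0.00654).

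**Figure D3:**
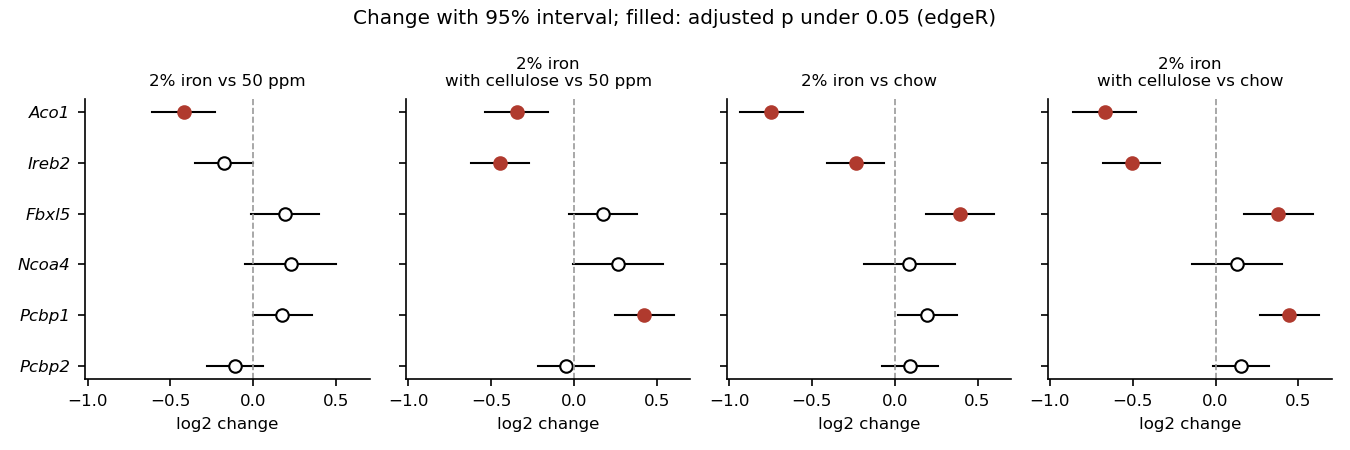
Log2 change (horizontal axis) with its 95% interval for each of the 6 genes (vertical axis) in 4 diet comparisons; filled points have an adjusted p under 0.05. Aco1 is filled in all 4 panels, Ireb2 in 3, Fbxl5 and Pcbp1 in 2 each, and Ncoa4 and Pcbp2 in none.

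Per length, Ireb2 and Fbxl5 stood below the other 4 genes by group means in the diet study and by medians in the panel. In the diet study the group means of TPM were 95.1 to 138 for Ncoa4, 81.2 to 127 for Pcbp1, 60.9 to 77.8 for Pcbp2, 47.3 to 68.0 for Aco1, 15.4 to 18.9 for Ireb2 and 8.26 to 12.01 for Fbxl5. In the panel the medians were 203 TPM for Pcbp2, 122 for Ncoa4, 96.8 for Pcbp1, 58.9 for Aco1, 18.6 for Ireb2 and 12.2 for Fbxl5. On chow, Aco1 at 66.9 to 69.7 TPM lay above Pcbp2 at 58.6 to 64.9 TPM. Pcbp2 held another place in the panel: in TPM, Pcbp1 over Pcbp2 was 1.11 to 1.70 in each mouse of the diet study and 0.314 to 0.704 in each strain. The 2 tables were made separately, and the CPM of Pcbp2 were alike (174 to 199 CPM in group means, a median of 209 CPM in the panel), so the order of these 2 genes per length depends on the table.

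Among the strains on 2% iron, Ncoa4 had the widest range in CPM and Pcbp1 the narrowest, by the highest over the lowest strain. Ncoa4 ran from 133 CPM in 129X1/SvJ through a median of 213 to 401 CPM in BXD74/RwwJ, which is 3.00 times the lowest. NOD/ShiLtJ followed with 388 CPM, against a median of 204 CPM over the 31 other inbred strains. Pcbp1 ran from 113 CPM in BXD28/TyJ through 157 to 189 CPM in BUB/BnJ, 1.67 times the lowest. On TPM, Ncoa4 again had the widest range, 4.09 times, from CE/J to BXD27/TyJ. The narrowest was then Pcbp2 at 1.95 times, beside 2.22 times for Pcbp1.

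Aco1 ran from 132 CPM in BTBR T<+> tf/J through a median of 192 to 264 CPM in BXD71/RwwJ. Ireb2 ran from 53.6 CPM in NZB/BlNJ through 97.3 to 138 CPM in BXD70/RwwJ. Fbxl5 ran from 20.7 CPM, also in NZB/BlNJ, through 30.4 to 42.8 CPM in BALB/cJ. Pcbp2 ran from 146 CPM in I/LnJ through 209 to 302 CPM in BXH2/TyJ. NZB/BlNJ was therefore lowest for both Ireb2 and Fbxl5, while BTBR T<+> tf/J, lowest for Aco1, was second lowest for Ireb2 at 62.1 CPM. On TPM, NZB/BlNJ was again lowest for Ireb2 and Fbxl5, but the other ends named in this paragraph fell to other strains.

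**Figure D4:**
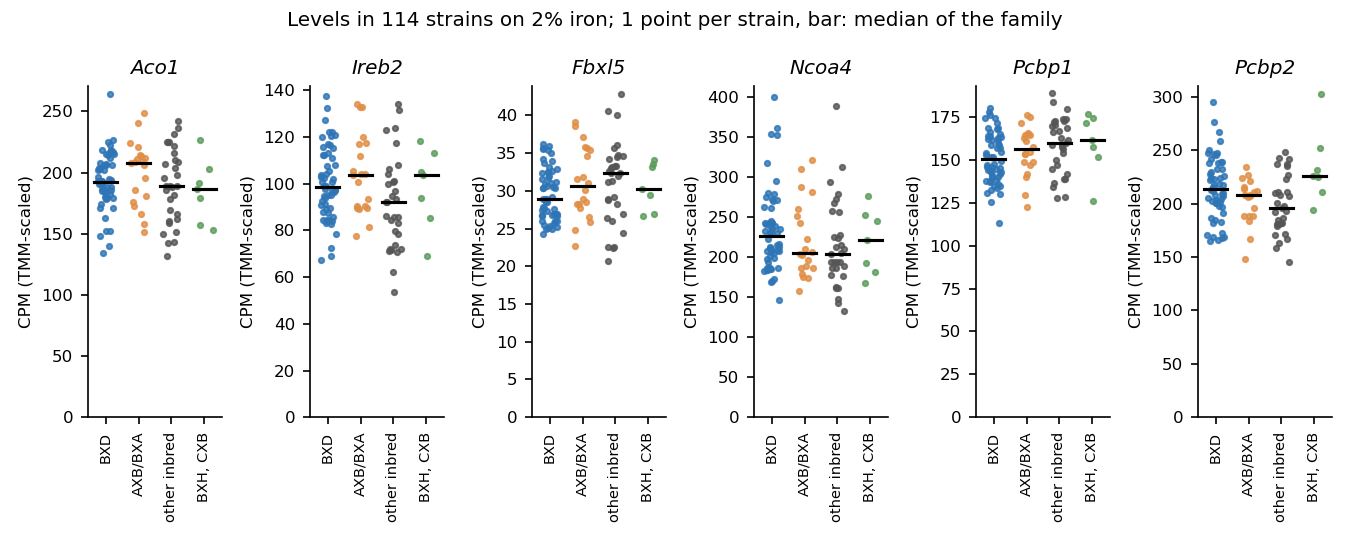
CPM (vertical axes, from 0) of each gene in 114 strains on 2% iron, 1 point per strain, by family (horizontal axis), with the median of each family as a bar. The families overlap for every gene, and single strains such as BXD74/RwwJ and NOD/ShiLtJ stand high for Ncoa4.

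The panel's C57BL/6J mouse can be set beside the 3 on 2% iron in the diet study, without a test. It had 166 CPM of Aco1, 92.2 of Ireb2, 28.3 of Fbxl5 and 226 of Ncoa4. The Aco1 value is just above the diet study's range on 2% iron and the others lie inside it, although the 2 tables were scaled separately. Its 179 CPM of Pcbp1 and 208 of Pcbp2 were above that range. Within the panel, C57BL/6J ranked 111 of 114 for Pcbp1, counting from the lowest, while DBA/2J, A/J and C3H/HeJ, founders of other recombinant families with it, ranked 21, 12 and 22. For Ireb2, DBA/2J had 131 CPM (place 108) against 92.2 CPM in C57BL/6J (place 44), and their 56 BXD descendants spanned 67.4 to 138 CPM. On CPM, the substrains BALB/cByJ and BALB/cJ stood near opposite ends for Aco1, with 242 CPM and 143 CPM. Each is a single mouse. In TPM they had 60.4 and 48.5, beside a panel median of 58.9 TPM. Pcbp1 of C57BL/6J was at 106 TPM, beside a panel median of 96.8 and a highest strain at 143 TPM. The places given here are by CPM.

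The SD of log2 CPM over strains was larger than the pooled SD between mice of 1 diet for all 6 genes, but the share of all genes with this order was not counted. The ratio was 3.23 for Ireb2, 2.78 for Pcbp2, 2.32 for Aco1, 1.98 for Ncoa4, 1.82 for Fbxl5 and 1.78 for Pcbp1, where the median of 12343 genes was 1.69. Ireb2 stood at percentile 94.2 of all genes by this ratio, though at percentile 75.9 on log2(TPM + 1). On log2 CPM the other genes ran from percentile 55.3 for Pcbp1 to 89.5 for Pcbp2 by this ratio. By the SD over strains alone, all 6 genes lay below the median of all genes on log2 CPM (0.32). Ireb2 had 0.27, at percentile 37.6, beside a within-diet SD of 0.08. The others ran from percentile 3.91 for Pcbp1 to 47.9 for Ncoa4. On log2(TPM + 1), however, Ncoa4 had an SD of 0.363, at percentile 62.8 and above the median of 0.319, while the other genes stayed below it. The within-diet SD comes from 10 degrees of freedom and from another table. The 2 mice of 129X1/SvJ differed on the log2 scale by 0.02 for Pcbp2 up to 0.22 for Aco1.

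The BXD and AXB/BXA families, which share the parent C57BL/6J, did not pass a test against each other for any of the 6 genes: edgeR and DESeq2 called 0 of 6, and 0 had an unadjusted p under 0.05, where 11.6% of 13794 genes were called, 6.62% higher and 5.02% lower in BXD. The largest difference was 0.09 for Pcbp2 (95% interval -0.01 to 0.19, adjusted p = 0.242), higher in BXD. For Ncoa4 it was 0.08 (95% interval -0.08 to 0.23). The ends of the 6 intervals lay between -0.17 and 0.23.

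Strains with less Ireb2 tended to have more Tfrc. Tfrc ran from 4.87 CPM in BXD13/TyJ through a median of 15.96 to 113 CPM in FVB/NJ. Its log2 CPM was related to that of Ireb2 with Pearson's r = -0.67 and Spearman's rho = -0.63 over 114 strains. Both reached the smallest p that 100000 permutations can give (1e-05; adjusted p = 6.5e-05 for r and 5.57e-05 for rho, over 39 relations). Without the 2 strains farthest from the median of Ireb2, r was -0.63 (permutation p = 1e-05). Within families, r was -0.67 over the 56 BXD, -0.65 over the 31 other inbred and -0.47 over the 20 AXB/BXA strains, the last with an adjusted p of 0.181.

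Ncoa4 and Tfrc tended to rise together across strains, with r = 0.60 and rho = 0.60 (permutation p = 1e-05 and adjusted p = 6.5e-05 and 5.57e-05). The value was 0.78 within BXD, 0.63 within other inbred and 0.59 within AXB/BXA strains (adjusted p = 0.0735 in the last), and 0.58 without the 2 farthest strains. With Fth1 the signs were the same: r = -0.58 for Ireb2 and 0.47 for Ncoa4, with rho = -0.48 and 0.50 (permutation p = 1e-05 each). Within BXD these were -0.64 and 0.61, and within AXB/BXA -0.11 and 0.57, neither passing there (adjusted p = 0.796 and 0.0735). Within other inbred strains they were -0.65 and 0.37, the second not passing (adjusted p = 0.147). Ireb2 and Fth1 had an r of -0.26 on log2(TPM + 1) (adjusted permutation p = 0.013) and a rho of -0.16, which did not pass (adjusted p = 0.131). Fth1 ran from 631 CPM in BXH14/TyJ to 1925 CPM in NZB/BlNJ, the strain with the least Ireb2.

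**Figure D5:**
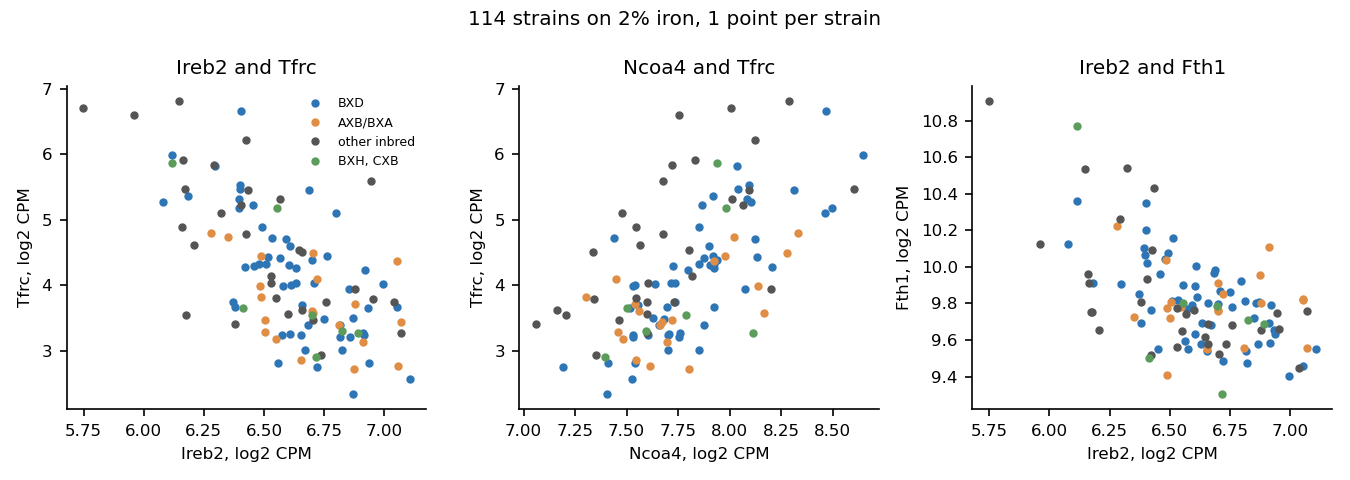
Log2 CPM of 2 genes in each of 114 strains on 2% iron, coloured by family; the horizontal axis is Ireb2 or Ncoa4 and the vertical axis Tfrc or Fth1. Tfrc falls as Ireb2 rises (r = -0.67) and rises with Ncoa4 (r = 0.60), and Fth1 falls as Ireb2 rises (r = -0.58).

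Among the genes themselves, Ireb2 rose with Fbxl5 (r = 0.41, rho = 0.41, adjusted p = 6.5e-05 and 5.57e-05 by permutation), most clearly in BXD (r = 0.69). Fbxl5 fell as Ncoa4 rose (r = -0.38, rho = -0.40, adjusted permutation p = 1.11e-04 and 9.75e-05), as did Ireb2 (r = -0.28, rho = -0.29, adjusted permutation p = 0.00763 and 0.00468). Aco1 was related to Pcbp1 inversely (r = -0.42, rho = -0.43, adjusted permutation p = 6.5e-05 and 5.57e-05), with r = -0.66 over other inbred strains but -0.27 over BXD (adjusted p = 0.124). Aco1 and Ireb2 had r = 0.34 and rho = 0.31 (adjusted permutation p = 7.41e-04 and 0.00276), and Ncoa4 and Pcbp2 r = 0.38 and rho = 0.41 (adjusted permutation p = 1.46e-04 and 5.57e-05). Without the 2 farthest strains these values were 0.37, -0.41, -0.28, -0.42, 0.27 and 0.44, in the order given. On log2(TPM + 1), r of Aco1 and Pcbp1 was -0.05, of Fbxl5 and Ncoa4 -0.09 and of Ireb2 and Ncoa4 -0.13, and none was called.

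In all, 15 of 39 relations passed for r and 18 for rho. Within the 20 AXB/BXA strains 0 passed for either, with 10 (r) and 8 (rho) at an unadjusted permutation p under 0.05. The share of all gene pairs that would pass the same test was not counted, so these counts have no background beside them. Pcbp2 passed with Fth1 (r = 0.37, rho = 0.39, adjusted permutation p = 2.17e-04 and 1.3e-04) and with Tfrc (r = 0.28, rho = 0.30, adjusted permutation p = 0.00621 and 0.00381). No gene of the 6 passed with Hamp, the gene of the iron hormone hepcidin, which holds on CPM. Fbxl5 and Hamp passed on log2(TPM + 1), with r = 0.25 and rho = 0.26 (adjusted permutation p = 0.0147 and 0.0128). On CPM, Aco1 passed with none of Tfrc, Hamp, Fth1 and Slc40a1. As a background, the middle 95% of all 12912 genes had an r between -0.58 and 0.64 with Ireb2 and between -0.48 and 0.50 with Ncoa4. The range was -0.38 to 0.44 with Aco1, -0.36 to 0.35 with Fbxl5, -0.27 to 0.32 with Pcbp1 and -0.35 to 0.40 with Pcbp2. Of the relations above, those of Ireb2 and of Ncoa4 with Tfrc lay outside the range of Ireb2 and of Ncoa4. Aco1 with Pcbp1 lay outside the ranges of both genes. Ireb2 with Fbxl5, and Fbxl5 with Ncoa4, lay outside that of Fbxl5 only. The other relations named above as passing for r on CPM lay inside.

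Cell type markers moved with some of these genes across strains, in 48 relations added after the values were seen. The share of all genes related in this way to the summed markers was not counted. With most single genes, r of Ireb2 lay between -0.58 and 0.64, and its values with markers given here lie inside that range. Relations with the stellate cell and erythroid markers are not reported here. Ireb2 was lower where the summed Kupffer cell markers were higher (r = -0.38, rho = -0.39, permutation p = 2e-05 and 4e-05, adjusted p = 4.8e-04 and 9.6e-04) and where the endothelial markers were higher (r = -0.42, rho = -0.46, permutation p = 1e-05 each, adjusted p = 4.8e-04 each). Without the 2 farthest strains these were -0.39 and -0.40. Tfrc was higher with the endothelial markers (r = 0.33, rho = 0.35, adjusted permutation p = 0.0054 and 0.00224). Aco1 was higher with the hepatocyte markers (r = 0.34, rho = 0.32, adjusted permutation p = 0.00352 and 0.00547), with r = 0.12 in BXD. The total count of the library was related to none of the 6 (r between -0.08 and 0.10).

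For each gene, genes among the 3 most alike over the 114 strains by Pearson's r of log2 CPM are given as a description, out of 12912 genes. For Ireb2 they included Azin1 (0.82) and Pcmtd2 (0.81). For Ncoa4 they were Susd6 (0.83), Fkbp5 (0.81) and Nucks1 (0.80). The genes named for these 2 kept an r of at least 0.67 in each of BXD, AXB/BXA and other inbred strains.

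For Aco1 they included Vdac1 (0.68) and Pdxk (0.67), and for Pcbp2 they were Eef1a1 (0.63), Nop53 (0.62) and Naca (0.61). Fbxl5 and Pcbp1 had no such close partner: the highest were Cnot6l (0.52), Kdm1b (0.50) and Arhgap12 (0.50) for Fbxl5, and Sec23b (0.53), Gmppb (0.53) and Wiz (0.52) for Pcbp1. The highest 2.5% of all genes by r began at 0.64 for Ireb2, 0.50 for Ncoa4 and 0.32 for Pcbp1. These values share libraries, dissection and cell makeup, and say nothing of shared function.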

How the data were processed

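Liver RNA of 15 diet-study mice and 115 panel mice was prepared with a stranded mRNA kit, per the labels. The submitters' processing notes name kallisto 0.46 and the build mm10, with no role or order; the strand setting is not given in the sources used here. The authors deposited estimated counts per gene (26.5% and 27.4% of values not whole) and TPM (transcripts per 1e6), in separate tables for the 2 studies. Estimated counts were rounded and tested with edgeR 4.0.16 in R 4.3.3: TMM factors, filterByExpr, quasi-likelihood test, Benjamini-Hochberg adjustment over all genes, called at an adjusted p under 0.05, two-sided. The 5 diets were fitted together without covariates. Symbols came from GENCODE M21 (34845 of 35274 and 35612 of 35711 identifiers matched). Relations used log2 CPM with a prior count of 2, permutations of strains and Benjamini-Hochberg adjustment.

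The labels do not pair samples or say how mice were housed, so p-values measure only the spread between these mice. The 6 genes and the lists were chosen with earlier results of these data known. The genes named are those 6, the called members of the lists, Tfrc, Hamp, Fth1 and Slc40a1, and for each of the 6 the 3 most alike genes (some items are not reported here); Skp1, Ciao3, Ciapin1, Egln1, Egln3, Sqstm1 and Atg9a are called members of lists. Alternatives were RLE factors, other filters, the compared groups alone, DESeq2 1.42.0, limma 3.58.1 on log2(TPM + 1) and log2(TPM + 0.1), and each mouse left out. Scripts were tested on simulated data.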

Additional observations from a re-analysis of the deposited data

How the results depend on the processing

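The number of the 6 genes called was within 1.5 times of the reported one in 139 cases and not in 14. On log2(TPM + 1) and on log2(TPM + 0.1), 0 were called for 2% iron against 50 ppm, 0 for 2% iron against 500 ppm and 0 for the trend over iron content, in place of 1 each; the cause was not tested. Fitting the 2 compared groups alone gave 0 for 2% iron against 500 ppm. DESeq2 called 1, Aco1, for chow against 50 ppm and 1 for 500 ppm against chow, in place of 0 each. Leaving out single mice gave 0 to 1 for 2% iron against 500 ppm (0 without either of 2 mice of the 2% group, replicates 1 and 3, or 2 of the 500 ppm group, replicates 1 and 3) and 0 to 1 for the trend (0 without replicate 3 of the 2% group). Of the 72 changes tested, 16 were called; 51 of the other 56 were called under no setting, and 11 of these changed sign somewhere, none larger than 0.14 as reported.

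On log2(TPM + 1) the relations called for r were 20 in place of 15, and some had the other sign: Aco1 and Fbxl5 at 0.32, Ireb2 and Pcbp1 at 0.22, Fbxl5 and Pcbp2 at 0.31, Pcbp1 and Pcbp2 at 0.35, Ireb2 and Slc40a1 at 0.045, Fbxl5 and Fth1 at 0.17, and Fbxl5 and Slc40a1 at 0.23. Of these, Ireb2 and Slc40a1 was called on CPM for r (-0.34), and Fbxl5 with Fth1 and with Slc40a1 for rho (-0.29 and -0.25). Pcbp2 and Slc40a1 had -0.013 with substrains averaged. Relations of Ireb2 and Ncoa4 with Tfrc and Fth1 stayed called for r on log2(TPM + 1), but not Ireb2 and Fth1 for rho (-0.16, adjusted permutation p = 0.131). The ratio of the spread between strains to that within diets was 1.45 for Aco1 and 2.04 for Ireb2 on TPM. Counts of all genes called that differed by over 1.5 times from edgeR's were, on log2(TPM + 1), 1208 in place of 2127 (2% iron against 50 ppm), 910 of 1538 (against 500 ppm), 1945 of 3087 (against chow), 2657 of 4026 (cellulose against 50 ppm), 2257 of 3505 (against 500 ppm), 1049 of 2018 (trend), 21 of 53 (chow against 50 ppm), 40 of 80 (500 ppm against chow), 18 of 11 (between the 2 diets with 2% iron) and 906 of 1606 (BXD against AXB/BXA). In DESeq2 they were 219 in place of 11 between the 2 diets with 2% iron, 2 of 0 for 500 ppm against 50 ppm, 144 of 53 for chow against 50 ppm and 286 of 80 for 500 ppm against chow. The 2 compared groups alone gave 924 in place of 1538 and 2222 of 3505 (both 2% diets against 500 ppm), 26 of 53 and 24 of 80, and 23 of 11. Other filters gave 26 and 51 in place of 11. Leaving out 1 mouse brought the trend down to 548 (without replicate 3 on 2% iron), 2% iron against 50 ppm to 1003 (without replicate 1 on 50 ppm) and against 500 ppm to 788, cellulose against 500 ppm to 2143 (both without replicate 1 on 500 ppm), chow against 50 ppm to 4 (without replicate 3 on 50 ppm) and 500 ppm against chow to 15 (without chow replicate 2). Between the 2 diets with 2% iron it gave 0 (without cellulose replicate 2) to 212 (without cellulose replicate 3). Replicate numbers used here count the mice of a group in the order the samples are listed, since the labels carry none. No paired analysis was possible because the labels do not pair samples. Fbxl5 rested on 231 to 518 counts per library of the diet study.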
